A study of Mus musculus with 6 samples.

Results

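Chromatin accessibility was examined at 10 genes that mark cardiac fibroblasts: Col1a1, Col1a2, Col3a1, Pdgfra, Tcf21, Postn, Dcn, Lum, Fap and Thy1. All peaks overlapping a gene body or the 10 kb to either side of it (GENCODE M21, mm10) were taken as peaks of that gene. These 10 windows were read against the windows of all 21938 protein-coding genes, and they ranged in length from 22.9 kb at Tcf21 to 93.1 kb at Fap. No window held the transcription start site (TSS) of another protein-coding gene, although the window of Col1a1 reached into the body of Sgca. The question was how much accessibility these fibroblast genes carried in nuclei that had been purified for cardiomyocytes or for the Nkx2-5 lineage.

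Omni-ATAC-Seq, in which a transposase inserts adapters into open chromatin, was performed on 50000 nuclei per library from whole hearts of mice at postnatal day 1, and nuclei of every group, Input included, had first passed through a dense 2.2 M sucrose cushion, which favours the nuclei of cardiomyocytes. The 6 libraries form 3 groups of 2 biological replicates. Input nuclei came from WT hearts and received no immunoprecipitation. Myc nuclei came from Nkx2-5 Cre/+; R26RSun1-Myc-Egfp/+ hearts and were captured by magnet-assisted nuclear immunoprecipitation (MAN-IP) with a Myc antibody, so they descend from cells that had expressed Cre from Nkx2-5, which include smooth muscle and endothelial cells as well as cardiomyocytes. PCM1 nuclei came from hearts labelled WT and were captured by MAN-IP with an antibody to PCM1, a centriolar satellite protein found on the nuclear envelope of cardiomyocytes.

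The authors deposited 1 list of MACS2 peaks per library, and the lists hold 75336 to 131500 peaks. The pileup at each summit, in tags, was solved from the fold enrichment and p-value of the peak, as was the genome-wide background, and this background was 3.96 and 1.02 tags for Input, 1.44 and 1.44 for Myc and 0.977 and 0.903 for PCM1. The deepest library, Input replicate 1, was 4.38 times as deep as the shallowest, so a missing peak means only that none was detectable at that depth. Each comparison was therefore made a second time on equal lists, in which every library keeps only its 75336 strongest peaks. The strength of a peak is given as its rank percentile, in which 100 is the highest -log10 q-value of the library and 0 stands for no peak. Both PCM1 libraries stood against their label in one respect. The tag is a fusion that contains Sun1, and peak summits lay in coding exons of Sun1 in both Myc libraries (4 and 4) and in both libraries labelled PCM1 and WT (3 and 7), but in neither Input library (0 and 0). Results are therefore also given without the PCM1 libraries. Accessibility of bulk nuclei cannot distinguish fewer fibroblast nuclei from less open chromatin per nucleus.

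Fibroblasts are the main source of extracellular matrix in the heart. They secrete the fibrillar collagens of types I and III together with proteins that organise the fibrils, and most of those resident in the ventricles arise from the epicardium. They are recognised by the receptor PDGFRα and the transcription factor TCF21, and once activated they make periostin and fibroblast activation protein. Several of these genes are also used by valve, vascular and other mesenchymal cells.

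Several sequences carry the findings that follow, and each is the 200 bp around a summit as read from GRCm38.p6, the assembly also called mm10, on the strand of the gene. The first 3 are shown because they are the highest ranking upstream regions of Col1a1, Postn and Dcn and were accessible in all 6 libraries. Capitals mark the motifs searched, which are listed with the motif counts. The region of Col1a1 lies 7249 bp upstream of its TSS (chr11:94928875-94929074). The region of Postn lies 2452 bp upstream (chr3:54358557-54358756), and that of Dcn lies 10027 bp upstream (chr10:97469482-97469681). All 3 lie outside protein-coding genes, and their genes are on the + strand.
Col1a1 upstream: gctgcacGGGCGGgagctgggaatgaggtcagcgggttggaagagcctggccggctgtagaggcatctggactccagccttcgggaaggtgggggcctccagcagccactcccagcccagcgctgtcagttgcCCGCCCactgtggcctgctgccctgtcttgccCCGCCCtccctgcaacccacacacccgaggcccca
Postn upstream: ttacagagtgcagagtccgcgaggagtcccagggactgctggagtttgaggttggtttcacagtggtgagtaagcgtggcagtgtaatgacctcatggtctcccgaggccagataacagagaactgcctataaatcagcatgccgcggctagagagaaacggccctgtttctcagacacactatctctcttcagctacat
Dcn upstream: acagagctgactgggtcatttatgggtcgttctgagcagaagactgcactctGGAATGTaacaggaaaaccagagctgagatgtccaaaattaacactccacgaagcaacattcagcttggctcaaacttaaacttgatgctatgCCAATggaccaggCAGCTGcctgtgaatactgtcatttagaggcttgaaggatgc
The window at Col1a1 had a GC content of 69.5% and 3 matches to the GC box GGGCGG, whereas the window at Postn had a GC content of 52% and no match to any motif searched. The window at Dcn had a GC content of 46% and held 1 E-box (CAGCTG), 1 match to the TEAD motif and 1 CCAAT box.

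The next 3 are shown because they were accessible in all 4 Input and Myc libraries and in neither PCM1 library. A region 8927 bp upstream of Pdgfra (chr5:75143265-75143464) and a region 7609 bp upstream of Postn (chr3:54353400-54353599) lie outside protein-coding genes, and a region 33436 bp downstream of the Pdgfra TSS (chr5:75185628-75185827) is intronic.
Pdgfra upstream: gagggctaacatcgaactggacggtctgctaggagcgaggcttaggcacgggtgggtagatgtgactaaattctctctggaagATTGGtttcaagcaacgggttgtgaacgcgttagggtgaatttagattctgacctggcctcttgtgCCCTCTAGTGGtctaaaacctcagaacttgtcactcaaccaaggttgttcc
Postn far upstream: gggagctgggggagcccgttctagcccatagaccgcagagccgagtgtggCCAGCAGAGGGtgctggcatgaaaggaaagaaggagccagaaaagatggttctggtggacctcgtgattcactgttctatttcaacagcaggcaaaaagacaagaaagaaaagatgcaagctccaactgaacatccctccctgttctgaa
Pdgfra intron: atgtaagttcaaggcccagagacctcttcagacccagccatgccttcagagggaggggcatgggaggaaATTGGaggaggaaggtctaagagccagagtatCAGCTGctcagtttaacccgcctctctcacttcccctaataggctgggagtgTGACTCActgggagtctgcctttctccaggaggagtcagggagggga
The 2 upstream windows each held 1 match to the core of the motif of CTCF, an insulator protein, which was read as CCA, any pair of bases, AG, any pair of bases and GG. The intronic window held TGACTCA, the AP-1 motif, together with CAGCTG and CCAAT.

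The genes of type I collagen, which forms the thick fibrils of heart tissue, differed widely in accessibility. Col1a1 (chr11:94936224-94953042, + strand) had the strongest peak of any of the 10 genes in every library, at rank percentiles of 97.3 and 96.2 for Input, 94.7 and 93.5 for Myc and 95.8 and 97.4 for PCM1. This was the region 7249 bp upstream, and its summit pileup was 506 and 145 tags for Input, 153 and 135 for Myc and 124 and 141 for PCM1. Myc was the lowest group there, and its values did not overlap with those of Input or PCM1. The same order held on equal lists, with 95.2 and 96.2 for Input, 92.5 and 90.6 for Myc and 95.3 and 97.2 for PCM1. A region in an intron, 967 bp downstream of the TSS, was also accessible in all 6 libraries, with pileups of 184 and 43 tags for Input, 93 and 92 for Myc and 45 and 34 for PCM1. Relative to the genome-wide background these were 46.5 and 42.0 times for Input, 64.5 and 64.1 for Myc and 46.1 and 37.7 for PCM1, so here Myc was the highest group and again did not overlap the others. The median promoter over all protein-coding genes was also highest in Myc on this scale, with 25.5 and 23.4 times background for Input, 32.6 and 32 for Myc and 21.5 and 23.3 for PCM1, so that levels over background are higher in Myc across the genome. The Col1a1 TSS itself was weaker: a peak 10 bp from it was present in Input replicate 1 and both Myc libraries, at rank percentiles of 29.5, 29.0 and 53.0, and in no other library.

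The 250 bp upstream of the Col1a1 TSS (chr11:94935974-94936223) are shown because the peak over the TSS, unlike the intronic one, was called in only 3 libraries. The capitals mark a GC box and a pair of CCAAT matches on the minus strand, which read ATTGG here.
Col1a1 promoter: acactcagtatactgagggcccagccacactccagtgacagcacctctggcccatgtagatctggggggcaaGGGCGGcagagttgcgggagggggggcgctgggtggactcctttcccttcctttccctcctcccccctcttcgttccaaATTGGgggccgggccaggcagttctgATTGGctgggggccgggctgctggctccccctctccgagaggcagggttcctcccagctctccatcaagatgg
CCAAT boxes close to the start of the type I collagen genes are known binding sites of the factor NF-Y.

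Col1a2 (chr6:4504814-4541544, + strand), which encodes the other chain of type I collagen, had its strongest peak at the promoter in all 6 libraries. Its summit lay 737 bp downstream of the 5′ end of the GENCODE gene, in a UTR exon, whereas the start that RefSeq gives lies 804 bp downstream of that 5′ end. The rank percentiles were 78.8 and 42.7 for Input, 59.8 and 74.4 for Myc and 51.4 and 46.2 for PCM1. Both Myc libraries lay above both PCM1 libraries, and the Input replicates spanned the whole range. On equal lists the Myc values (42.8 and 63.1) overlapped those of PCM1 (46.4 and 41.9). A weaker region 1467 bp upstream was present in both PCM1 libraries and Input replicate 1 but in neither Myc library, with pileups of 11, 14 and 49 tags.

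Col3a1 (chr1:45311538-45349706, + strand) encodes type III collagen, which forms fine, distensible fibrils. Peaks in its window numbered 8 and 2 for Input, 5 and 4 for Myc and 2 and 1 for PCM1. The highest of these ranked at 61.2 and 55.8 for Input, 51.5 and 61.1 for Myc and only 33.5 and 12.4 for PCM1, the lowest group. This separation was still present on equal lists, with 32.2 and 55.8 for Input, 31.0 and 44.0 for Myc and 26.7 and 5.20 for PCM1. The promoter peak reached 52 and 20 tags for Input, 26 and 35 for Myc and 13 tags in PCM1 replicate 1, and PCM1 replicate 2 had none. Over background, Input replicate 1 (13.1 times) and PCM1 replicate 1 (13.3 times) were alike at this promoter, and neither there nor by the strongest peak did both Input libraries exceed both PCM1 libraries. An intronic region 2575 bp downstream of the TSS was present in Input replicate 1, both Myc libraries and PCM1 replicate 2.

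Among the secreted matrix proteins, Postn (chr3:54361109-54391037, + strand) encodes periostin, a matricellular protein that crosslinks collagen. Peaks in its window numbered 4 and 4 for Input, 6 and 6 for Myc and 3 and 3 for PCM1, so that each group was separate from the others. With equal lists the counts were 4 and 4, 4 and 5, and 3 and 3, and only PCM1 stood apart. The promoter peak reached 95 and 23 tags for Input, 42 and 41 for Myc and 17 and 20 for PCM1. Against background this was 24.0 and 22.5 times for Input, 29.1 and 28.6 for Myc and 17.4 and 22.1 for PCM1, which is the order of the medians over all genes, and the lowest Input and the highest PCM1 value lay within counting error of each other. The region 2452 bp upstream outranked the promoter in all 6 libraries. The region 7609 bp upstream reached 31 and 23 tags in Input and 32 and 49 in Myc, and was the strongest Postn region of Myc replicate 2 (rank percentile 81.1), yet it was not called in PCM1.

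Dcn (chr10:97479609-97518143, + strand) encodes decorin, a proteoglycan that binds collagen fibrils. The same 3 regions were called in all 6 libraries, and on equal lists they were the only peaks of the window, so that each library had 3. They were the region 10027 bp upstream, the promoter 74 bp upstream and an intronic region 37082 bp downstream of the TSS. Promoter pileups were 86 and 17 tags for Input, 46 and 44 for Myc and 14 and 17 for PCM1. Reaching 31.9 and 30.6 times background, the Myc promoter peaks were above those of Input (21.7 and 16.6) and PCM1 (14.3 and 18.8) without overlap, and the medians over all genes were likewise highest in Myc. The upstream region did not follow this order, with rank percentiles of 72.9 and 44.3 for Input, 76.0 and 78.0 for Myc and 64.2 and 74.6 for PCM1.

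Lum (chr10:97565128-97572703, + strand) encodes lumican, a related proteoglycan, and lies 47.0 kb beyond the end of Dcn. By the mean rank of its strongest peak it was the lowest of the 10 genes. An exact permutation test over the 6 libraries did not separate it from Fap (adjusted p = 0.262). The strongest Lum peak ranked at 4.37 in Input replicate 1, 20.7 and 41.6 in Myc, and 2.01 in PCM1 replicate 2. Input replicate 2 and PCM1 replicate 1 had no peak. The pileups behind these ranks were 15, 11, 16 and 6 tags. On equal lists only Myc replicate 2 kept any Lum peak (2 peaks). A region 7927 bp upstream was called in both Myc libraries and nowhere else, at 11 and 14 tags.

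The surface proteins of the group include Pdgfra (chr5:75152292-75198215, + strand), the receptor for platelet-derived growth factor that is used to sort cardiac fibroblasts. Its window was the richest in peaks, with 8 and 6 for Input, 8 and 7 for Myc and 5 and 4 for PCM1. PCM1 stayed below the others on equal lists, with 7 and 6 for Input, 6 and 6 for Myc and 5 and 4 for PCM1. The strongest region lay in an intron 4087 bp downstream of the TSS, 454 bp from the start of another annotated transcript, and its pileups were 188 and 42 tags for Input, 110 and 104 for Myc and 61 and 49 for PCM1. It ranked at 87.4 and 71.0 for Input, 89.4 and 89.6 for Myc and 85.9 and 81.9 for PCM1. In the equal lists Myc (84.9 and 85.0) was again above PCM1 (84.4 and 80.4), but Input (77.9 and 71.0) was below both. The peak next to the main TSS, 1006 bp upstream, had 71 tags in Input replicate 1 and 50 and 34 tags in Myc, and was not called in Input replicate 2 or in PCM1. Pdgfra thus had regions called in all 6 libraries, the strongest of them near an internal start, and others that were not called in PCM1.

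Fap (chr2:62500943-62574075, − strand) encodes a serine protease of activated fibroblasts. Its 93.1 kb window was nearly empty. The promoter peak had 30 tags in Input replicate 1 and 16 and 22 tags in Myc, and Input replicate 2 and both PCM1 libraries had no peak in the window. Where it was called it ranked at 45.8, 43.9 and 59.0. Myc replicate 2 had a further pair of weak intronic peaks, at 9 and 11 tags.

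Thy1 (chr9:44043384-44048579, + strand) encodes a glycoprotein of the cell surface found on fibroblasts, neurons and T cells. Its promoter region, 409 bp upstream, had 41 and 16 tags for Input, 21 and 18 for Myc and 12 tags in PCM1 replicate 2. Over background, PCM1 replicate 2 (13.3 times) was above Input replicate 1 (10.4 times) there. PCM1 replicate 1 had a peak only in an intron, at 11 tags. The strongest Thy1 peaks ranked at 55.3 and 47.8 for Input, 57.6 and 46.9 for Myc and 38.3 and 35.0 for PCM1. With equal lists these became 22.0 and 47.8, 39.6 and 23.5, and 31.9 and 29.7, and the groups overlapped.

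Tcf21 (chr10:22817281-22820174, − strand), a basic helix-loop-helix factor needed for fibroblasts to form from the epicardium, was the only transcription factor among the 10. Its promoter peak, 11 bp upstream of the TSS, was called in every library with 77 and 25 tags for Input, 39 and 41 for Myc and 20 and 12 for PCM1. It ranked at 73.9 and 62.1 for Input, 71.7 and 73.0 for Myc and 60.6 and 36.5 for PCM1. On equal lists Myc (59.7 and 61.1) was still above PCM1 (56.5 and 31.3), and Input (54.5 and 62.1) overlapped both. A region beyond its 3′ end, 6394 bp from the TSS, was called in 5 libraries. Another region there, 5217 bp from the TSS, was called in both Input libraries only, at 26 and 11 tags, and Input replicate 1 lost it on equal lists.

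**Figure D1:**
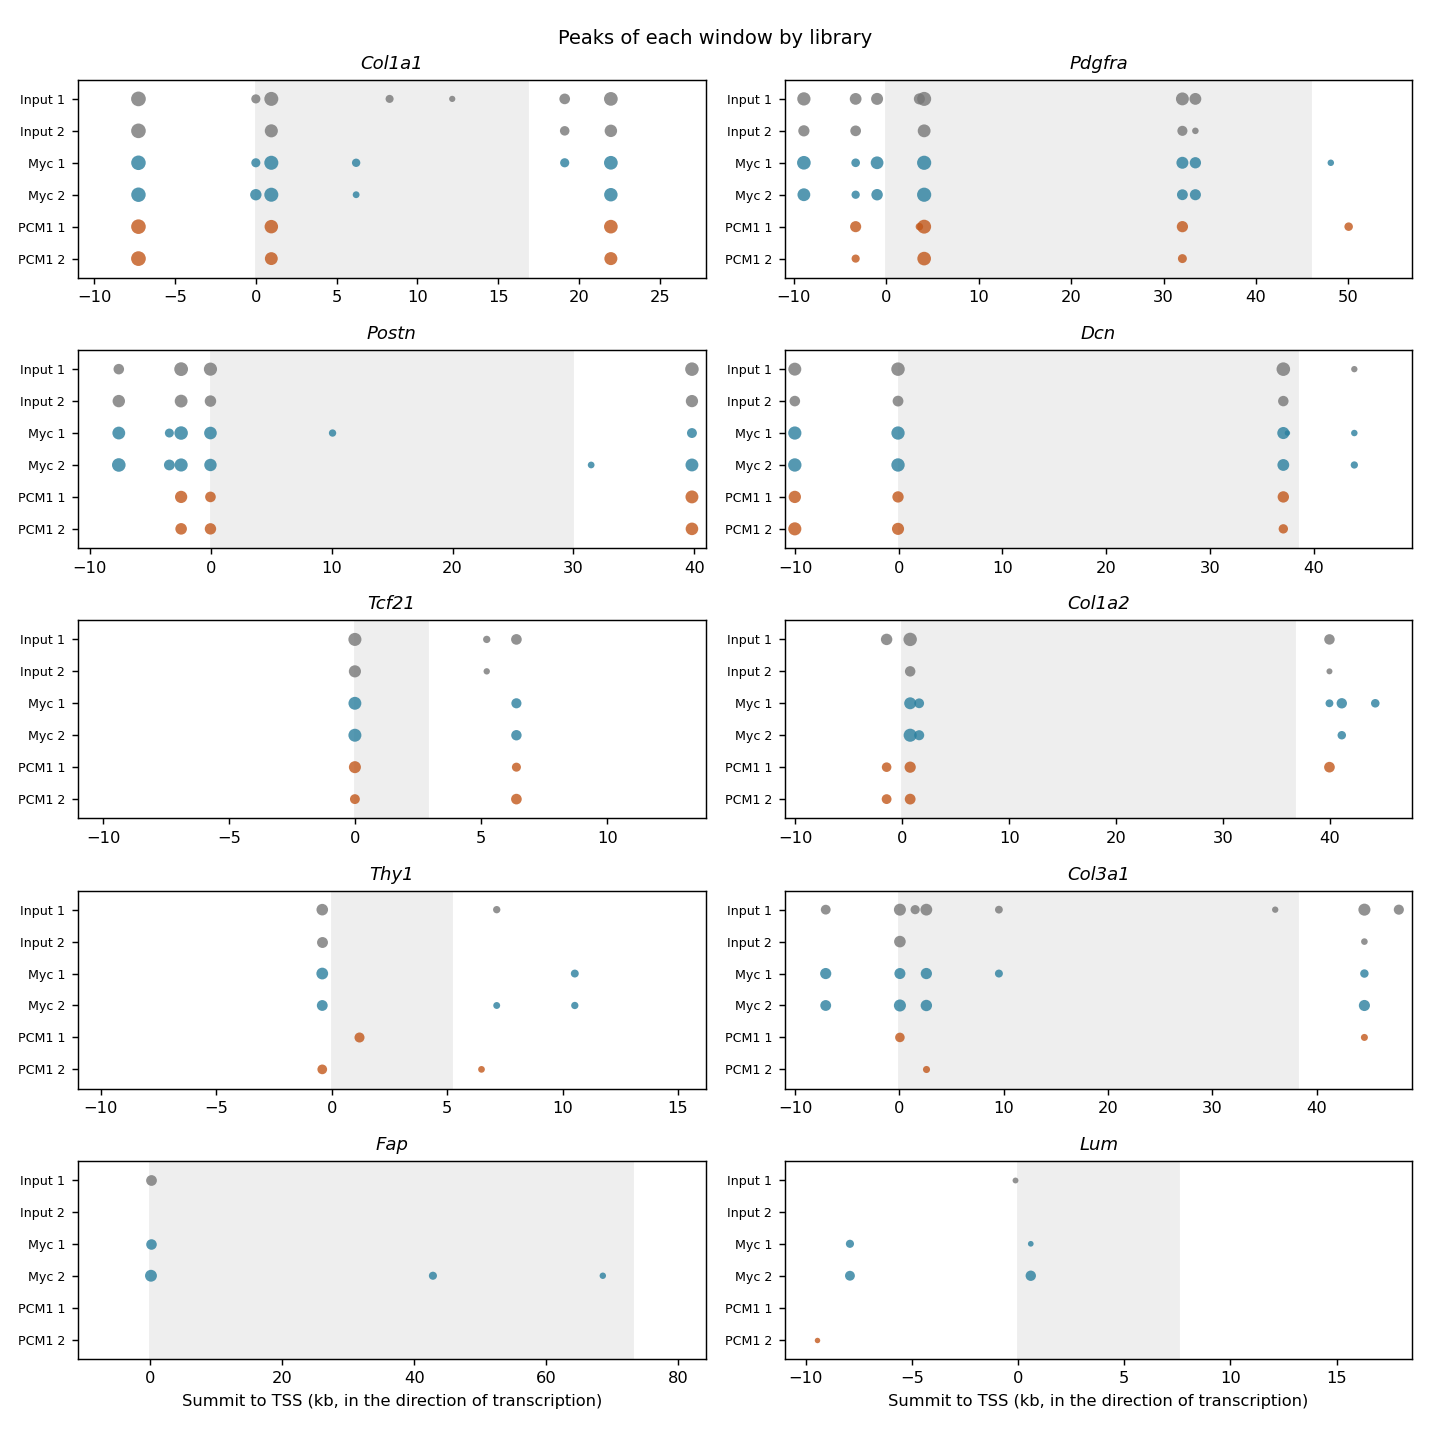
Positions of peaks in the windows of the 10 genes, with each row a library (Input gray, Myc blue, PCM1 orange) and the horizontal axis the distance of the region's summit from the TSS in kb in the direction of transcription. Gray shading marks the gene body and point size grows with the rank percentile of the peak in its library. Col1a1, Pdgfra, Postn and Dcn have regions called in all 6 rows, whereas Fap and Lum are nearly empty in Input and PCM1.

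Summed over the 10 genes, Myc had the most peaks on average and PCM1 the fewest. The windows held 41 and 24 peaks for Input (32.5 ± 12.0, SD, n = 2), 42 and 39 for Myc (40.5 ± 2.12, n = 2) and 22 and 21 for PCM1 (21.5 ± 0.707, n = 2). PCM1 thus lay below both other groups in each library, whereas Input and Myc overlapped. The Input replicate with more peaks was the deeper one. On equal lists the sums were 28 and 24 for Input (26.0 ± 2.83), 26 and 30 for Myc (28.0 ± 2.83) and 22 and 20 for PCM1 (SD 1.41 around a mean of 21). PCM1 remained lowest without overlap, and Input and Myc overlapped again. The mean of PCM1 was 0.750 times that of Myc over the 10 genes and 1.03 times over all protein-coding genes, and it was 0.808 times that of Input against 1.01 times over all genes. Between Myc and Input the ratio was 1.08 for the 10 genes and 0.982 for all genes, and this difference was smaller than the replicate spread. With 2 libraries per group, an exact permutation test, two-sided, cannot give a p-value below 0.333, and none was made between groups.

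**Figure D2:**
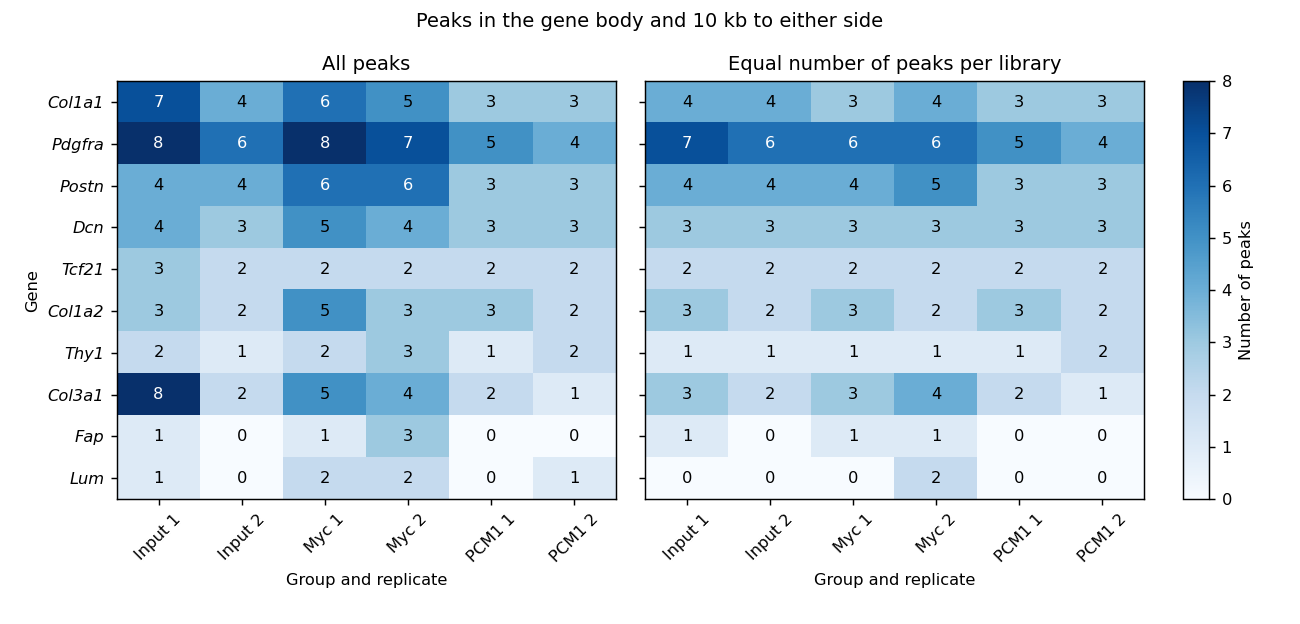
Number of peaks in the gene body and 10 kb to either side for each gene (rows) and library (columns, group and replicate), with all peaks on the left and the strongest 75336 peaks of each library on the right. Darker blue is a larger number, from 0 to 8. Pdgfra keeps 4 to 7 peaks on equal lists. There Lum has peaks only in Myc replicate 2, and Fap only in Input replicate 1 and both Myc libraries.

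The lower number in PCM1 was unevenly distributed over the genes. With all peaks, both PCM1 libraries had fewer peaks than both Myc libraries at 7 of the 10 genes, against 23.5% of all genes. On equal lists this held at 4 of 10 (Col3a1, Pdgfra, Postn and Fap), against 8.41% of all genes. Both Input libraries exceeded both PCM1 libraries at Col1a1, Pdgfra and Postn, 3 of 10 in both settings, against 8.98% of all genes with all peaks and 6.24% on equal lists. At none of the 10 did both PCM1 libraries have more peaks than both libraries of Input (0.971% of all genes, and 6.36% on equal lists) or of Myc (2.37% and 9.29%). Postn and Lum were the 2 genes with more peaks in both Myc than in both Input libraries (3.78% of all genes), and none had this order on equal lists (5.69%). Pdgfra and Postn were lowest in PCM1 against all 4 other libraries on equal lists, a pattern seen at 3.1% of all genes. With all peaks Col1a1 joined them, and 6.08% of all genes had the pattern. Dcn and Tcf21 had the same number of peaks in every library on equal lists. A peak anywhere in the window was called in all 6 libraries at 8 of the 10 genes in both settings, all but Lum and Fap, against 75.8% of all genes with all peaks and 74.6% on equal lists.

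Promoter peaks, those within 1 kb of the 5′ end of the gene, were called at most genes in Myc and at fewest in PCM1. A promoter peak was called in both libraries at 7 of the 10 genes in Input (59.6% of all genes), at 10 of 10 in Myc (61.8%) and at 5 of 10 in PCM1 (57.6%). Equal lists left 7, 9 and 5 genes, against 58.4%, 58.7% and 56.8% of all genes. The 5 genes with a promoter peak in all 6 libraries were Col1a1, Col1a2, Tcf21, Postn and Dcn, and 56.1% of all genes had one (54.9% on equal lists). Lum, Fap and Pdgfra had none in PCM1, and Col3a1 and Thy1 had one in a single PCM1 replicate. Myc replicate 1 lost Lum on equal lists, where its promoter had 8 tags. When the TSS of any annotated transcript was allowed, 8 genes had one in both Input libraries, 10 in both Myc and 7 in both PCM1 libraries, since Pdgfra and Thy1 then had a promoter peak in every library. The share of all genes was not calculated for this setting.

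The promoter rank was higher in both Myc than in both PCM1 libraries at all 10 genes, against 43.5% of all genes. A gene without any promoter peak cannot show this order, and among the 14969 genes with one in at least 1 library the share was 63.7%. There were 7 of 10 that kept this order on equal lists, against 31.5% of all genes and 48.6% of those with a promoter peak, and those lost were Col1a2, Lum and Thy1. When pileups were instead divided by the genome-wide background, with a library without a peak set to its detection floor of 3.54 to 6.84 times background, 8 of 10 had the order, against 37.4% of all genes and 54.8% of those with a promoter peak, and Lum and Thy1 did not. This measure was chosen after the data had been seen. The reverse order, PCM1 above Myc, was found at no promoter of the 10 with all peaks (4.98% of all genes), on equal lists (10%) or by background (8.51%). Both Myc libraries were above both Input libraries at 1 promoter with all peaks (20.3% of all genes), 4 on equal lists (26.9%) and 6 by background (34.9%, and 51.1% of genes with a promoter peak). Counting error is wide for the low peaks: the 13 tags at the Col3a1 promoter in PCM1 replicate 1 were 13.3 times background, with an exact Poisson 95% interval of 7.08 to 22.8. Such intervals cover counting error only.

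**Figure D3:**
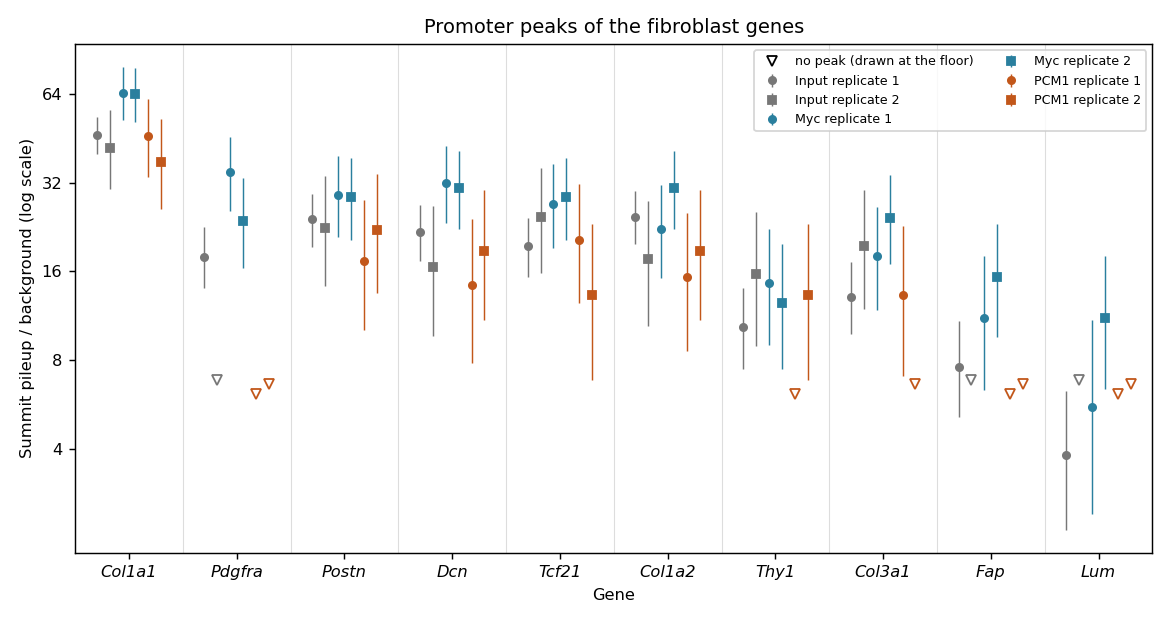
Summit pileup of the promoter peak divided by the genome-wide background of the library (vertical axis, log scale) for each gene and library, with bars for the exact Poisson 95% interval of the pileup. Open triangles mark a library without a promoter peak, drawn at its detection floor. Col1a1 lies at 37.7 to 64.5 in all libraries, and PCM1 has only triangles at Pdgfra, Fap and Lum.

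The strongest peak of the window, wherever it lay, was also often higher in Myc than in PCM1. Both Myc libraries ranked above both PCM1 libraries at 9 of 10 genes with all peaks (51.2% of all genes) and at 5 of 10 on equal lists (35.8%). The latter were Col3a1, Pdgfra, Tcf21, Postn and Fap. A gene without a window peak in Myc cannot show this order. Such a peak was called at 82.1% of all genes in either Myc library, and at 79.3% and 79.2% on equal lists. Col1a1 was the exception, with PCM1 above Myc in both settings (10.1% and 18.4% of all genes had that order) and Input above Myc as well (9.94% and 17.9%). Both Input libraries ranked above both PCM1 libraries at 3 of 10 (28.1%) and 2 of 10 (26.3%), which is near the share of all genes. Both Myc libraries ranked above both Input libraries at 2 of 10 (Pdgfra and Lum, 24.5%) and 4 of 10 on equal lists (31.9%), and by pileup over background at 6 of 10 (40.5%).

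Many pairs of the 10 genes were ordered the same way in every library. Means of the strongest rank percentile over the 6 libraries were 95.8 for Col1a1, 84.2 for Pdgfra, 75.8 for Postn, 70.2 for Dcn, 64.3 for Tcf21, 58.9 for Col1a2, 46.8 for Thy1, 45.9 for Col3a1, 24.8 for Fap and 11.4 for Lum. Of the 45 pairs of genes, 35 differed in the same direction in all 6 libraries, for which flipping the sign of each library's difference in an exact two-sided permutation test (n = 6) gives p = 0.0312, the smallest it can give, and 0.0402 after Benjamini-Hochberg adjustment over the 45 pairs. Equal lists also gave 35 pairs below 0.05 after adjustment. The test takes the 6 libraries as independent, although the labels do not say which of them shared a preparation. No share was calculated for pairs of other genes. Among neighbours in the order, Col1a1 was above Pdgfra by 11.6 ± 7.80 percentile points (SD, n = 6), Pdgfra was above Postn by 8.35 ± 5.51 and Col3a1 was above Fap by 21.1 ± 20.0, each in 6 of 6 libraries. Ranked by fold instead, Pdgfra was above Postn in only 3 of 6 libraries (adjusted exact permutation p = 0.785) and Col3a1 above Fap in 5 of 6 (adjusted p = 0.222), and in windows of 2 kb Col1a1 was above Pdgfra in only 1 of 6 (adjusted p = 0.252). The other 6 pairs of neighbours did not differ beyond their spread, with adjusted exact permutation p-values from 0.105 to 0.875. Without the PCM1 libraries, 36 pairs kept one direction in all 4 remaining libraries, where the smallest p an exact permutation test allows is 0.125, and the order changed only in that Col3a1 stood above Thy1.

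**Figure D4:**
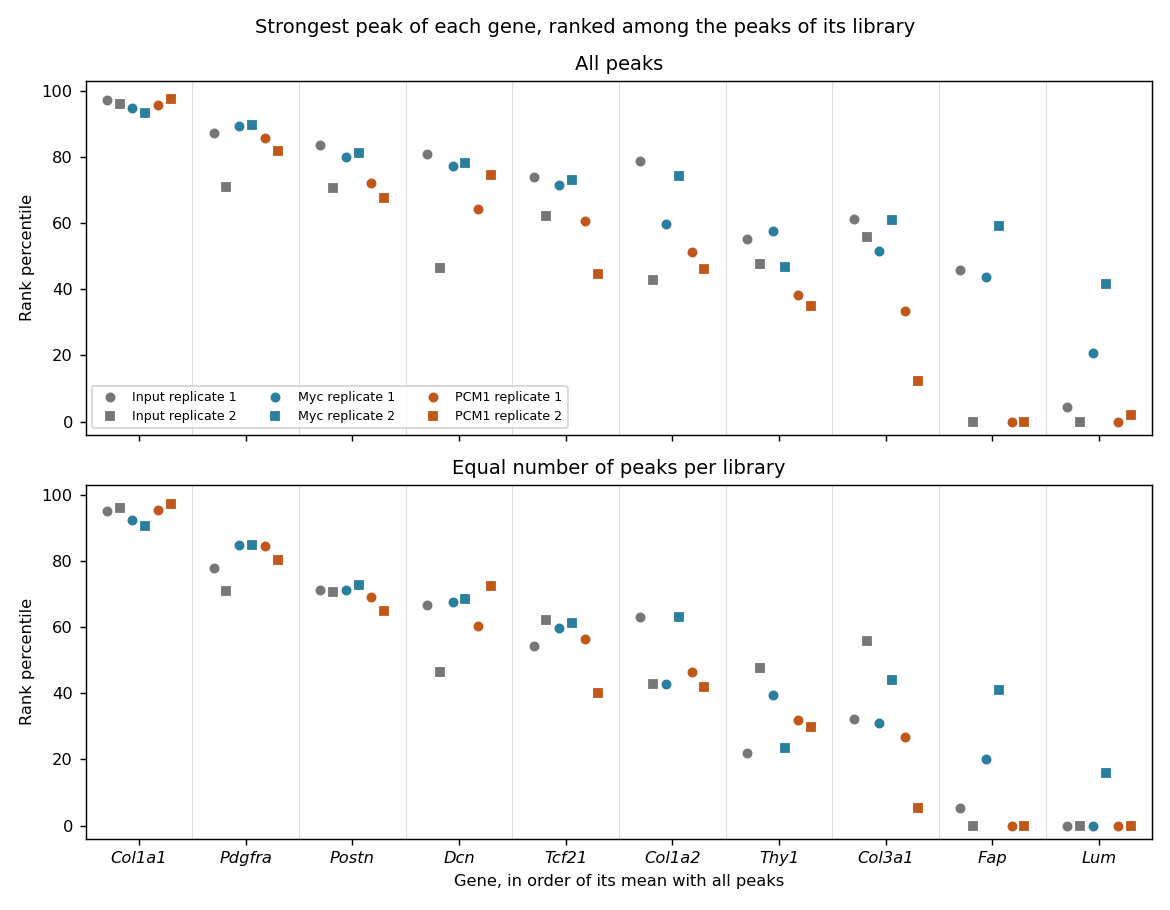
Rank percentile of the strongest peak of each gene among the peaks of its library (vertical axis, 0 for no peak), by gene and library, with all peaks above and equal lists below. Circles are replicate 1 and squares replicate 2 of Input (gray), Myc (blue) and PCM1 (orange). Col1a1 stays above 90 in all libraries, and Fap and Lum reach 0.

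Merged over the libraries, the 10 windows held 58 regions, of which 12 were promoter, 16 intronic, 2 in coding exons, 11 upstream and 17 downstream. A peak was called in all 6 libraries at 14 of them (24.1%), against 28.8% of all merged regions in the genome. The corresponding values on equal lists were 13 of 39 (33.3%) and 37.1%. Of the 14, 5 were promoter regions, 3 intronic, 4 upstream and 2 downstream, and they belonged to Col1a1, Col1a2, Pdgfra, Tcf21, Postn and Dcn. In contrast, 17 regions were called in 1 library only. Without the PCM1 libraries there were 54 regions, and 20 were called in all 4 remaining libraries.

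Regions of single groups were mostly weak. Both Myc libraries and no other shared 7 regions with all peaks (1.84% of all regions have this pattern), and 2 on equal lists (1.96%). These 2 were the region 7070 bp upstream of Col3a1 (chr1:45304271-45304655), at 20 and 18 tags, and an intronic region 1580 bp downstream of the 5′ end of Col1a2 (chr6:4506271-4506534), at 22 and 22 tags. The Col3a1 region also had a peak of 25 tags in Input replicate 1 when all peaks were used. Both Input libraries shared 1 region of their own in either setting (1.08% and 1.01%): the downstream region of Tcf21 with all peaks, and a region 19110 bp downstream of the Col1a1 TSS (chr11:94955187-94955507) on equal lists, which had 56 and 20 tags in Input and 23 tags in Myc replicate 1. Both PCM1 libraries shared none (0.254% and 1.35%). The 3 regions of Pdgfra and Postn called in all 4 Input and Myc libraries but not in PCM1 were the same in both settings, and this pattern was seen at 2.26% of all regions with all peaks and 1.60% on equal lists. In the shallower PCM1 libraries the detection floor was 6.14 and 6.64 times background, and these 3 regions lay at 7.83 to 34.1 times background in the other libraries, so the lowest was only just above that floor.

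The 58 regions were searched for motifs of factors active in mesenchyme and heart, and the shares are given beside those of all open regions, with no test. In 200 bp around the summit, with both strands searched, CCAAT was found in 17 regions (29.3%, against 22.5% of 169867 regions in the genome), CAGCTG in 8 (13.8% against 19.8%), GGGCGG in 6 (10.3% against 11.2%), TGACTCA or its complement in 5 (8.62% against 6.65%), GATAAG, bound by GATA factors, in 5 (8.62% against 9.06%), CATATG in 4 (6.90% against 3.13%) and ACATTCC, bound by TEAD factors, in 3 (5.17% against 5.17%). The exact forms searched of the MEF2 motif of muscle genes were in none of the 58, and in 0.993% of all regions. CATATG and CAGCTG are E-boxes, the sites of basic helix-loop-helix factors such as TCF21. The median GC content was 49.3% in the 58 regions and 51.0% in all regions. Only 3 of the 58 (5.17%) had an observed to expected CpG ratio above 0.6, against 9.96% of all regions. A match of letters is a description and does not show binding.

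The CTCF core was searched after the sequences of these 3 regions of Pdgfra and Postn had been read. It was in 9 of the 58 regions (15.5%, against 10.8% of all regions), 2 of them among the 3 regions called in all 4 Input and Myc libraries but not in PCM1. Over the genome it was in 21.5% of the 3841 regions called in all 4 Input and Myc libraries but not in PCM1, 11.6% of the 48860 called in all 6 libraries and 5.70% of the 456 called in all 4 Input and PCM1 libraries but not in Myc.

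The strongest peaks of the fibroblast genes ranked low beside those of other genes in every group. The number of their peaks per 100 kb of window was below that of all genes in both PCM1 libraries. In Input and Myc it was near or above that of all genes. On equal lists the 10 genes had 5.66 and 4.85 peaks per 100 kb for Input, 5.25 and 6.06 for Myc and 4.45 and 4.04 for PCM1. All genes had 4.87 and 4.87 for Input, 4.79 and 4.77 for Myc and 4.93 and 4.92 for PCM1. On equal lists, the median rank percentile of the strongest peak over the 10 genes was 58.7 and 51.8 for Input, 51.3 and 62.1 for Myc and 51.4 and 41.0 for PCM1. The median over all protein-coding genes was between 82.7 and 86.4 in the 6 libraries. Windows of other genes could hold the TSS of a neighbouring gene, which no window of the 10 did, and such peaks were not left out. Over background, the median strongest peak was 16.6 to 29.6 times for the 10 genes, against 52.2 to 70.3 for all genes. Promoter medians lay closer together, at 13.3 to 26.5 times for the 10 genes against 21.5 to 32.6. Medians were between 89.0 and 97.0 for 12 cardiomyocyte genes and between 82.9 and 87.4 for 12 endothelial genes. The medians of 10 epicardial genes were between 48.2 and 66.7. Smooth muscle and pericyte genes had medians between 72.6 and 82.6, and 10 immune genes between 53.2 and 73.0.

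The marker lists differed in which group ranked highest. Of the 10 fibroblast genes, 5 ranked higher in both Myc than in both PCM1 libraries on equal lists and 1 lower, against 35.8% and 18.4% of all genes. Cardiomyocyte genes, also on equal lists, ranked higher in both PCM1 than in both Myc libraries at 11 of 12 genes and higher in both Input than in both Myc at 11 of 12; 18.4% and 17.9% of all genes had those orders. Of the 10 smooth muscle and pericyte genes, 2 ranked higher in Myc than in PCM1 and 4 higher in PCM1 than in Myc, and of the 12 endothelial genes 2 and 7 did. The 10 epicardial genes had 3 and 4 of these orders, and the 10 immune genes 3 and 1. The part of these cell types in the differences at fibroblast genes was not tested.

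**Figure D5:**
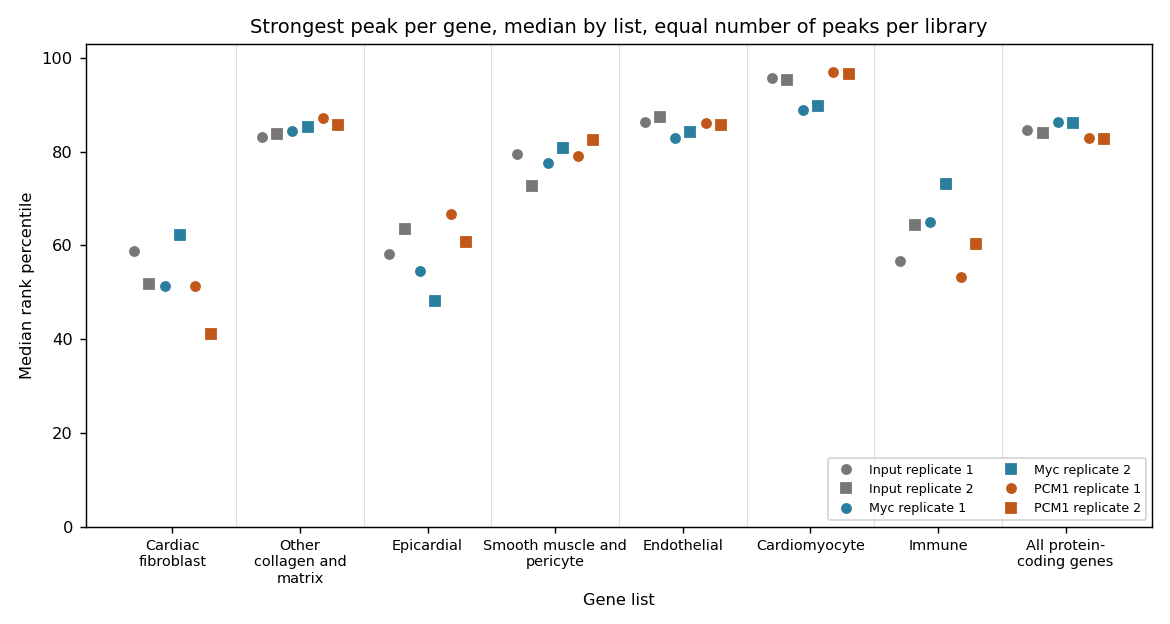
Median rank percentile of the strongest peak (vertical axis) over the genes of 7 lists and over all 21938 protein-coding genes, by library, on equal lists. Circles are replicate 1 and squares replicate 2 of Input (gray), Myc (blue) and PCM1 (orange). The fibroblast list lies between 41.0 and 62.1, below the 82.7 to 86.4 of all genes in every library.

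A further 24 genes of collagen processing and matrix assembly ranked higher, as a list, than the 10. Their median strongest rank on equal lists was 83.1 and 83.8 for Input, 84.5 and 85.4 for Myc and 87.1 and 85.7 for PCM1, close to that of all genes. The most accessible were P4ha1, a prolyl hydroxylase subunit for collagen (mean 98.5 ± 0.840, SD, n = 6), Mfap4, a protein of elastic fibres (98.0 ± 0.693), and Ddr2, a receptor for collagen (97.7 ± 0.886). The least accessible were Dpt, which encodes dermatopontin (59.1 ± 7.90), Bgn, which encodes biglycan (58.9 ± 12.9), and Twist1, a mesenchymal transcription factor. Twist1 ranked at 60.4 and 53.0 for Input, 58.3 and 54.1 for Myc and 36.7 and 37.3 for PCM1, and was thus lowest in PCM1, as Col3a1 was. Of the 24 genes 4 had this order, and of the 10 fibroblast genes 2 did, against 19.4% of all genes. Another 4 of the 24 were highest in PCM1, against 10.2% of all genes. Both Myc libraries ranked above both PCM1 libraries at 9 of the 24 (35.8% of all genes), and PCM1 above Myc at 6 (18.4%).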

How the data were processed

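Peak lists from Omni-ATAC-Seq of 6 libraries were used. The authors trimmed the reads (fastq-mcf), aligned them to mm10 (Bowtie2 version 2.3.3.1), marked duplicates (Picard 2.2.1), removed blacklisted regions (bedtools 2.7.1), shifted alignments for the transposase and called peaks separately in each library (MACS2 version 2.1.0.20160309) at a q-value of 0.05. In each deposited list, fold is the authors' ratio of summit pileup to local background, p-values and q-values are deposited as -log10, and the deposited score is the -log10 q-value times 10.

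Peaks were assigned to GENCODE M21 windows by an overlap of at least 1 bp and ranked within a library by -log10 q-value. Pileup and background were solved from fold and p-value, and 99.8% or more of the pileups were whole within 0.02 tags. The detection floor was the 1st percentile of pileups divided by the background. Versions were bedtools 2.31.1, Python 3.11.15, numpy 2.4.6, scipy 1.17.1, pandas 2.3.3 and matplotlib 3.10.9. The calculations were tested on simulated data.

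Sequences came from GRCm38.p6, since the RefSeq promoter table matched 5 of the 10 genes, too few for a comparison over that table. All 10 genes are named, and of the other matrix genes the 3 highest and 3 lowest by mean rank on equal lists. The regions named by rule were the strongest and the promoter region of each gene and those of 1 group on equal lists, and other regions were chosen after their values were seen. The members and lists were chosen with earlier results of these data known. Alternatives were equal lists, a q-value of 0.01, windows of 2 kb, peaks placed by summit, promoters of 200 bp or of any transcript, ranks by fold, 50% coverage, peaks near other TSSs left out, and each library left out. The p-values reflect how far the libraries agreed in the direction of a difference. Every pair of genes with 1 direction in all 6 libraries has the same p-value, whatever its spread.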

Additional observations from a re-analysis of the deposited data

How the results depend on the processing

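Of the values for whole comparisons, 69 of 78 moved by less than the limit set for them, and 37 of 40 values of single genes did. That limit was wide for peak numbers, since Input means of 24 and 41, with a library left out, both counted as within it. Differences between groups on equal lists were smaller than these changes in the Input mean, so the check cannot show that they were kept. With windows of 2 kb to either side, mean peaks per library fell to 18.5 for Input, 22.5 for Myc and 12.0 for PCM1. Promoters of 200 bp left 5 genes with a peak in both Input, 7 in both Myc and 3 in both PCM1 libraries. For this setting too, the share of all genes was not calculated. Where peaks had to cover 50% of a region, 8 regions were shared by all 6 libraries. Both Myc libraries ranked above both Input libraries at 2 genes in the report (24.5% of all genes) and 4 on equal lists (31.9%). By pileup over background, a measure chosen after the data were seen, 6 genes had this order (40.5%). By fold 1 gene did, and no share of all genes was calculated. Both Myc libraries ranked above both PCM1 libraries at 5 genes on equal lists (35.8% of all genes), against 9 in the report (51.2%). The causes were not tested, other than that smaller windows, smaller promoters and stricter coverage admit fewer peaks. Leaving out each library gave 24 to 41 peaks for Input, 39 to 42 for Myc and 21 to 22 for PCM1. In the same runs 7 to 10 genes had an Input promoter peak, 10 had a Myc one and 6 a PCM1 one, with 14 to 16 regions and median ranks of 58.7 to 64.8. Ranked by fold, Postn and Dcn passed Pdgfra and 29 of the 45 pairs of genes were below 0.05, against 35. With 2 kb windows Pdgfra took the first place from Col1a1, whose strongest region lies farther out. No paired analysis was possible because no test between groups was made. Input was an aliquot of cushion nuclei of which the rest went to capture, but the labels do not say which libraries shared a preparation. Depth limits absence: the detection floor was 3.54 to 6.84 times background.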
